A study of Macaca fascicularis with 56 samples.

Results

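Eukaryotic translation initiation factors were followed in whole blood of cynomolgus macaques over 8 h. The group was defined by gene symbol: probe sets annotated to a single symbol beginning with EIF1 to EIF6, without the EIF2AK kinases, EIF1AY and pseudogenes. Each gene was read by the probe set with the highest mean, provided that it lay above the median of its array on at least 4 of the 56 arrays. The rule took 43 of the 16020 genes tested. Of these, 42 were protein-coding initiation factors, on which all counts rest, and the other was the noncoding antisense gene EIF1B-AS1. EIF3C and EIF4A2 had no probe set that passed this filter, and EIF3CL, EIF4A1 and EIF4EBP3 had only probe sets shared with other symbols, so these 5 factors were not measured here. Of the 42 genes, 41 lay above the median on all 56 arrays, and EIF5A2 on 54 of them.

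Translation initiation begins when EIF2 carries the initiator tRNA to the small ribosomal subunit, where EIF1, EIF1A, EIF3 and EIF5 help to find the start codon. EIF4F, formed by the cap-binding protein EIF4E, the scaffold EIF4G and the helicase EIF4A, recruits the mRNA, and EIF4E-binding proteins hold EIF4E back until they are phosphorylated by the kinase complex mTORC1. EIF2B recharges EIF2 with GTP after each round, and stress kinases slow protein synthesis by making EIF2 a poor substrate for it. Leukocytes activated by endotoxin use both controls to adjust the synthesis of inflammatory proteins.

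The 14 animals formed 3 arms, each sampled at 0, 2, 4 and 8 h with 1 array per hour: vehicle (4 animals, Y31301 to Y31304), peptide control (4 animals, Y31305 to Y31308) and LR12 (6 animals, Y31309 to Y31314). The series concerned an endotoxin challenge followed by LR12 or by the same peptide with its residues scrambled. LR12 is a peptide derived from TREML1 that competes for ligands of TREM-1, a receptor that amplifies inflammatory signalling in neutrophils and monocytes. From the labels it is unclear if vehicle animals received endotoxin, where in the protocol hour 0 fell, and which doses were used. Age, sex and other background of the animals were not given either.

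Levels are log2 of the deposited MAS5 intensities, and changes are differences of these logs, so that a negative change is a lower level. Macaque RNA was read with human probes, so no level is compared between genes. Errors of changes are standard errors (SE) from limma, and a gene was called when its Benjamini-Hochberg adjusted p over all 16020 genes was below 0.05. The median array value ran from 16.1 to 23.5 at 0 h and from 12.9 to 20.2 at 4 h in the LR12 arm, and the median change of all genes there was -0.18 at 2 h, -0.29 at 4 h and -0.27 at 8 h. Member changes should be read against those medians. In the LR12 arm the array sets differed too: 1, 1, 2 and 3 of 6 arrays at 0, 2, 4 and 8 h had high signal of the nonmammalian control probe sets. The values are therefore also given after centring each array on its median, which brought the median change of all genes to -0.12, -0.02 and 0.01.

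In the LR12 arm about as many factors changed as did not, and most of those that changed fell. At 2 h, 7 of the 42 rose and 14 fell, against 10.1% of all genes called higher and 21.9% called lower. At 4 h, 3 rose and 20 fell, against 10.8% and 26.0% of all genes. At 8 h, 2 rose and 20 fell, against 8.65% and 20.4%. The share of members that fell was thus 33.3%, 47.6% and 47.6%, above the share among all genes at each hour. Yet the members changed less in size than all genes in every LR12 animal at each hour. The median absolute change was 0.38 against 0.61 in Y31309 at 2 h, and 0.73 against 0.77 in Y31311 at 8 h. With the second-brightest probe sets, which only a part of the members has, 4, 7 and 11 fell. The higher share is therefore not read as a larger fall of the family. In the low-signal array set alone 8, 4 and 2 members rose and 15, 20 and 17 fell, counts without the share of all genes beside them. The median change of the members was -0.23, -0.36 and -0.50, which lay 0.05, 0.07 and 0.23 below the median of all genes. That gap was -0.335 and -0.509 at 4 and 8 h under quantile normalization, and with the second-brightest probe sets it had the opposite sign at all 3 hours, with 0.0871 at 8 h. After centring, 5 rose and 11 fell at 2 h, 6 rose and 10 fell at 4 h, and 5 rose and 9 fell at 8 h, while 10.4%, 15.4% and 13.7% of all genes were called higher and 18.7%, 16.8% and 9.83% lower. All 11, 10 and 9 falls under centring were among the falls on the uncentred scale, and no member was called in opposite directions by the main and the centred scale.

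In the peptide control arm far fewer factors were called, with 4 animals in place of 6. At 2 h, EIF1B rose and none fell, against 2.20% of all genes called higher and 1.10% lower. At 4 h, EIF4E rose and EIF3F and EIF4EBP2 fell, against 1.90% and 2.95%. At 8 h, EIF4E rose and EIF3K fell, against 0.487% and 0.243%. With the animal as a paired replicate block, which uses the fact that the same animals were sampled at each hour, 3, 14 and 3 members were called at the 3 hours, against 7.63%, 15.3% and 4.29% of all genes. The 11 added at 4 h were EIF2B3, EIF2B4, EIF2B5, EIF2D, EIF3E, EIF3G, EIF3I, EIF3K, EIF3M, EIF4EBP1 and EIF5, and each had a negative change. After centring, EIF4E at 4 and 8 h was the only member called in this arm.

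In the vehicle arm limma called no member at any hour, with 3, 4 and 0 members at an unadjusted p below 0.05 at 2, 4 and 8 h. Counts at an unadjusted p, here and below, have no share of all genes beside them and are not read as an excess. Of all genes, 0% were called higher and 0% lower at 2 h. At 4 h these shares were 0% and 0.0125%, and by 8 h they were 0.0125% and 0.0250%. The replicate block also called none. The median member change was 0.02 at 2 h, -0.22 at 4 h and -0.06 at 8 h.

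**Figure D1:**
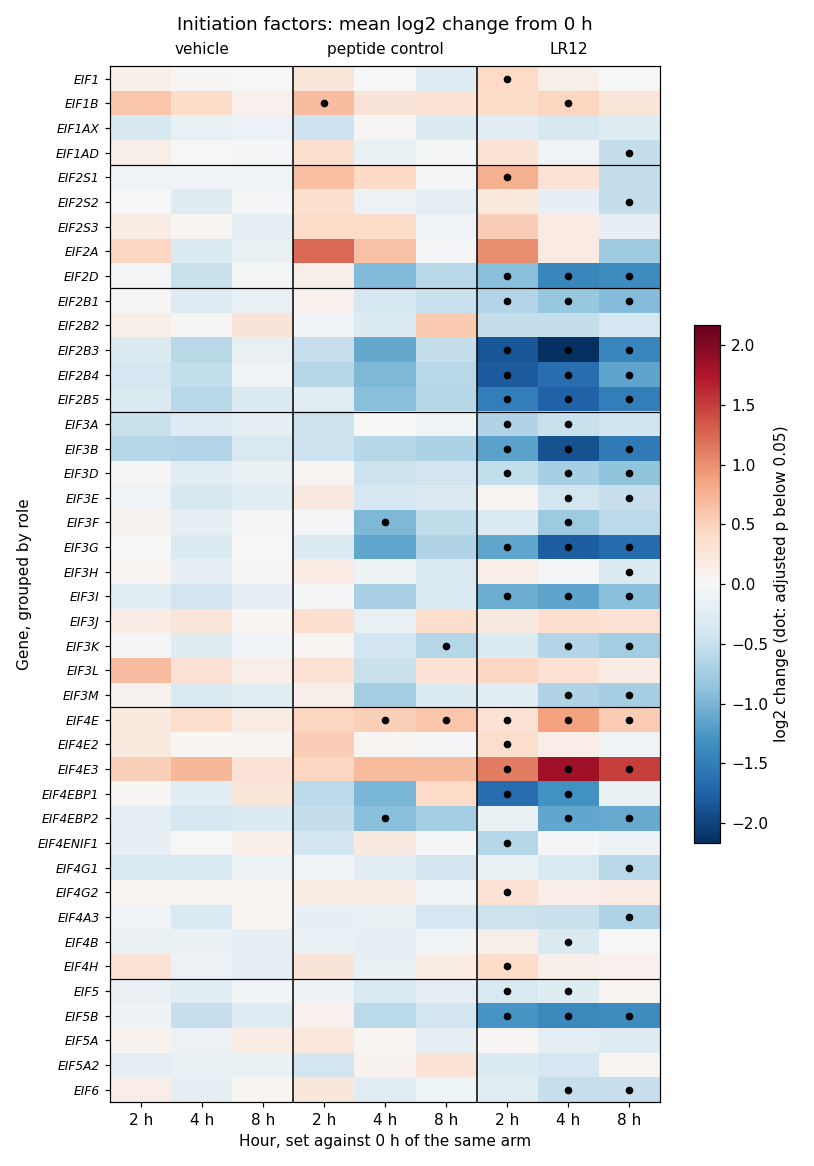
Mean log2 change from 0 h of the 42 initiation factors (rows, grouped by role) at 2, 4 and 8 h in the vehicle, peptide control and LR12 arms (columns), with a dot where the adjusted p was below 0.05. The LR12 columns hold 21, 23 and 22 dots, most of them on blue cells, and the vehicle columns hold none.

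Among the EIF2 subunits and the other factors that deliver initiator tRNA, a brief rise at 2 h stood beside a lasting fall of EIF2D. EIF2S1 encodes the alpha subunit of EIF2, which carries the serine that stress kinases phosphorylate. In the LR12 arm its lowest, median and highest levels were 9.70, 10.01 and 10.37 at 0 h. By 2 h they were 10.51, 10.74 and 11.29, and by 8 h they were 9.25, 9.43 and 9.95. No 2 h value overlapped the 0 h values, and EIF2S1 rose by 0.77 ± 0.22 (SE, n = 6, adjusted p = 0.00509), to 171% of the 0 h level. At 8 h its change was -0.52, which was not called (with the replicate block, adjusted p = 0.0305). The other EIF2S1 probe sets changed by 0.73 and 0.16 at 2 h and by 0.05 and 0.21 at 8 h in LR12.

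In the peptide control arm 3 of 4 animals were higher at 2 h, where EIF2S1 went from 9.58, 10.06, 9.99 and 9.71 at 0 h to 9.49, 11.11, 10.57 and 10.81. In the vehicle arm it went from 9.82, 10.44, 9.41 and 9.97 to 9.29, 9.73, 10.71 and 9.62, so that Y31303 alone was higher. EIF2S1 was higher at 2 h in LR12 than in vehicle animals, by 0.95 ± 0.25 (adjusted p = 0.00565), although Y31303 overlapped the LR12 values. That call was lost with the mean of all EIF2S1 probe sets, with the second-brightest of them and without Y31301. EIF2S2 and EIF2S3, the beta and gamma subunits, had changes of 0.23 and 0.53 at 2 h, which were not called, and EIF2S2 fell by 0.52 at 8 h. EIF2A, a protein that can bring initiator tRNA without GTP, showed 1.01 at 2 h in LR12 and 1.23 in the peptide control, neither of them called. With the replicate block the LR12 value was called (adjusted p = 0.0366).

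EIF2D, a monomeric factor that binds tRNA and the small subunit outside the canonical path, fell at each hour in the LR12 arm. Its lowest, median and highest levels were 10.04, 10.36 and 10.96 at 0 h and 8.67, 8.84 and 9.93 at 4 h, so the ranges did not overlap. The successive falls were 0.90 ± 0.29, 1.42 ± 0.29 and 1.36 ± 0.29, in 6 of 6 animals each time, and it was called under both scalings. In the peptide control arm EIF2D went from 9.78, 10.17, 10.85 and 9.77 to 9.86, 9.11, 8.82 and 8.98 at 4 h, a mean change of -0.95 (adjusted p = 0.0249 with the replicate block). Y31306, Y31307 and Y31308 were lower, and Y31305 was not.

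The exchange factor EIF2B held the deepest fall of all members at 2 h and at 4 h, that of its subunit EIF2B3. It consists of the catalytic subunits gamma (EIF2B3) and epsilon (EIF2B5) and the regulatory subunits alpha (EIF2B1), beta (EIF2B2) and delta (EIF2B4), which sense phosphorylated EIF2. In the LR12 arm 4 of the 5 subunits fell at every hour, against 21.9%, 26.0% and 20.4% of all genes called lower. EIF2B2, with changes of -0.52, -0.52 and -0.38, was not called at any hour. After centring, EIF2B3, EIF2B4 and EIF2B5 were called at 2 and 4 h, and EIF2B1, EIF2B3 and EIF2B5 at 8 h.

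EIF2B3 had lowest, median and highest levels of 6.93, 8.00 and 8.78 at 0 h in the LR12 arm. They were 5.20, 5.72 and 7.65 at 2 h. The 4 h levels were 5.16, 5.66 and 6.60, and those of 8 h were 6.20, 6.46 and 6.80. The 4 h and 8 h values lay entirely below those at 0 h. EIF2B3 fell by 1.86 ± 0.32 at 2 h (adjusted p = 8.48e-06), by 2.16 ± 0.32 at 4 h (adjusted p = 5.51e-07) and by 1.42 ± 0.32 at 8 h (adjusted p = 6.2e-04), and stood at 22.3% of the 0 h level at 4 h. It fell in 6 of 6 animals at each hour.

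In the control arms EIF2B3 moved less. The 4 peptide control animals had 7.53, 7.90, 8.40 and 7.28 at 0 h and 6.66, 6.69, 6.83 and 6.47 at 4 h, lower in 4 of 4, a change of -1.11 (adjusted p = 0.0166 with the replicate block). The vehicle animals had 8.25, 8.47, 7.12 and 6.63 at 0 h and 7.39, 7.13, 6.51 and 7.04 at 4 h, lower in 3 of 4. LR12 lay below the peptide control at 2 h by 1.25 ± 0.35 (adjusted p = 0.0410) and below vehicle by 1.28 ± 0.35 at 2 h (adjusted p = 0.00932) and 1.29 ± 0.35 at 4 h (adjusted p = 0.0126). The difference from the peptide control was not called when any one of 9 animals was left out, among them Y31305, nor after centring, nor in the low-signal array set alone.

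In LR12 animals EIF2B4 had lowest, median and highest levels of 9.16, 9.32 and 9.99 at 0 h, and by 2 h these were 7.10, 7.41 and 9.01, without overlap. It fell by 1.81 ± 0.32 at 2 h, 1.66 ± 0.32 at 4 h and 1.13 ± 0.32 at 8 h. A second probe set of EIF2B4 changed by -1.92, -1.74 and -1.36, close to the one used. In the peptide control arm EIF2B4 went from 9.15, 9.21, 9.54 and 9.08 at 0 h to 9.28, 8.49, 8.43 and 8.31 at 2 h, lower in all but Y31305.

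For EIF2B5 the lowest, median and highest LR12 levels were 9.18, 9.79 and 10.21 at 0 h, and by 4 h these were 7.29, 7.94 and 8.88, again without overlap. It fell by 1.50 ± 0.31 at 2 h, 1.75 ± 0.31 at 4 h and 1.49 ± 0.31 at 8 h. Its second probe set, with a mean log2 level of 3.31 against 8.82 for the one used, did not follow: it changed by -0.12, 0.01 and 0.36. EIF2B1 fell by 0.63 ± 0.22, 0.83 ± 0.22 and 0.94 ± 0.22, and its values did not overlap those of 0 h at 4 and 8 h.

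**Figure D2:**
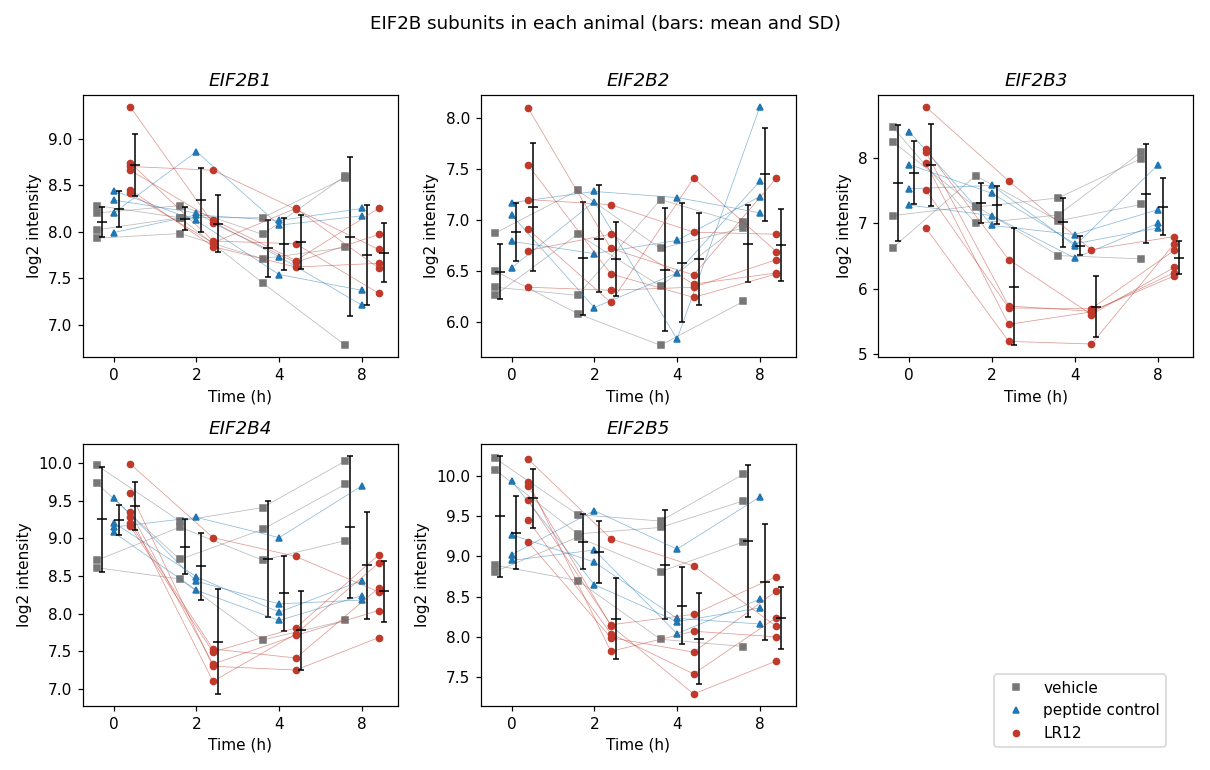
Log2 intensity of the 5 EIF2B subunits against time in every animal, with thin lines joining the arrays of an animal and black bars giving mean and SD of each arm and hour. The LR12 points of EIF2B3, EIF2B4 and EIF2B5 drop at 2 h and stay lower, whereas EIF2B2 shows no clear shift in any arm.

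EIF3, the largest initiation complex, holds the small subunit open for mRNA and docks EIF4G. In LR12 animals 5, 9 and 8 of the 12 measured subunits fell at the successive hours, against 21.9%, 26.0% and 20.4% of all genes. No subunit rose. The median change was -0.30, -0.64 and -0.64, against -0.18, -0.29 and -0.27 for all genes. Centring left 4, 3 and 3 falls, against 18.7%, 16.8% and 9.83% of all genes. With the replicate block 6, 9 and 10 subunits fell, against 25.8%, 29.8% and 25.5% of all genes.

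With the probe sets used, the 3 largest falls in this complex belonged to EIF3B, EIF3G and EIF3I, which form a mobile module at the entry side of the mRNA channel together with a part of EIF3A. Their changes ran from -1.15 to -1.07 at 2 h, from -1.88 to -1.15 at 4 h and from -1.66 to -0.91 at 8 h. The other 9 subunits ran from -0.64 to 0.44 at 2 h, from -0.79 to 0.37 at 4 h and from -0.88 to 0.31 at 8 h. These ranges hold for the probe set used for each gene. Dimmer probe sets of other subunits reached the range of the 3: one of EIF3A, with a mean level of 7.96, changed by -1.33, -1.70 and -1.57, another by -1.46 at 2 h, and one of EIF3H by -1.34 at 8 h. These subunits were set apart after their values were seen, so no test is given for that contrast.

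EIF3B had lowest, median and highest levels of 7.51, 8.16 and 8.51 at 0 h in the LR12 arm and 5.18, 6.18 and 7.12 at 4 h. It fell by 1.15 ± 0.28 at 2 h, 1.88 ± 0.28 at 4 h (adjusted p = 8.16e-07, 27.1% of the 0 h level) and 1.52 ± 0.28 at 8 h. Its 4 other probe sets were dimmer, with mean levels of 3.96 to 6.64, and changed by -0.47 to 0.38 at 4 h, 1 of them upward. At 4 h the peptide control animals had 7.81, 7.54, 7.37 and 7.22, all above the 6 LR12 values, and the difference was -1.27 ± 0.31 (adjusted p = 0.0302). Of all differences between LR12 and the peptide control among the members, this was the only one called at 4 h, and it was not called after centring or with the mean of all EIF3B probe sets, nor without any one of Y31305, Y31306, Y31307, Y31312, Y31313 and Y31314.

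EIF3G, an RNA-binding subunit, had lowest, median and highest LR12 levels of 8.49, 9.19 and 9.84 at 0 h, and by 8 h these were 7.17, 7.51 and 7.81, without overlap. Its successive falls were 1.13 ± 0.32, 1.79 ± 0.32 and 1.66 ± 0.32. The vehicle animals had 9.63, 9.59, 7.36 and 8.79 at 8 h, the low value being that of Y31303. LR12 lay below vehicle by 1.15 ± 0.36 at 4 h (adjusted p = 0.0279) and 1.33 ± 0.36 at 8 h (adjusted p = 0.0348). The 4 h call was lost without any one of 5 animals and the 8 h call without any one of 8, and at 8 h also after centring. In the high-signal arrays alone neither was called, with differences of -0.459 and -0.506 (adjusted p = 0.739 and 0.915). Both calls were lost when only the groups compared were fitted, and without Y31303 the 8 h difference was -1.83. EIF3I, a propeller-shaped subunit, fell by 1.07 ± 0.23, 1.15 ± 0.23 and 0.91 ± 0.23 and was lower than in the peptide control at 2 h, with a difference of -0.996 ± 0.25 (adjusted p = 0.0238). That difference was not called after centring, in the low-signal arrays alone, with only the groups compared, or without any one of 7 animals. Centring also ended the 8 h call of EIF3I within the LR12 arm.

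Of the other 9 subunits 2, 6 and 5 fell at the successive hours. EIF3K fell by 0.63 ± 0.13 at 4 h and 0.75 ± 0.13 at 8 h in the LR12 arm, where its 0 h values spanned only 13.07 to 13.19 and its 8 h values 12.10 to 12.60. In the peptide control arm EIF3K fell at 8 h by 0.61 ± 0.16 (adjusted p = 0.0466), from 12.81, 12.97, 13.02 and 12.94 to 12.90, 11.88, 12.22 and 12.31, in 3 of 4 animals, a call lost after centring and without any one of 10 animals. EIF3F fell at 4 h in both peptide arms, by 0.79 ± 0.23 in LR12 and by 0.97 ± 0.28 in the peptide control (adjusted p = 0.0347), and neither fall was called after centring. EIF3D, the subunit that can itself bind the cap of some mRNAs, fell by 0.53, 0.71 and 0.88. EIF3J and EIF3L had positive changes at each hour in LR12, up to 0.37 and 0.44, and were not called. EIF3A was called at 2 and 4 h, EIF3E and EIF3M at 4 and 8 h, and EIF3H at 8 h. Centring ended every LR12 call of EIF3D, EIF3E, EIF3H and EIF3M, and those of EIF3A and EIF3K at 4 h.

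**Figure D3:**
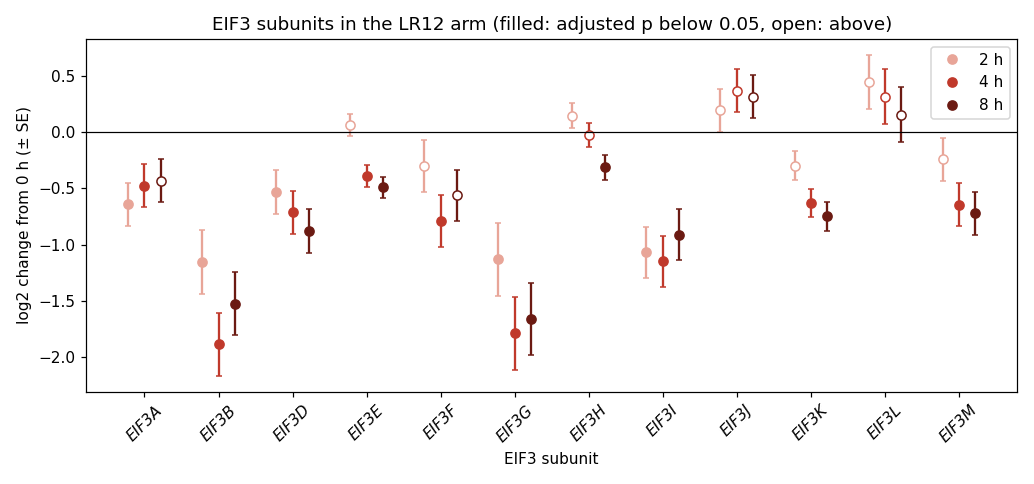
Log2 change from 0 h of the 12 measured EIF3 subunits in the LR12 arm at 2, 4 and 8 h, with standard errors of limma as bars and filled points where the adjusted p was below 0.05. With the probe set used for each gene, EIF3B, EIF3G and EIF3I lie lowest at every hour, and no subunit has a filled point above 0.

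The cap-binding proteins EIF4E and EIF4E3 rose at all 3 hours in LR12, although the calls of EIF4E depended on the processing, most of all at 2 h. EIF4E3, a cap-binding relative of EIF4E that does not bind EIF4E-binding proteins, had lowest, median and highest levels of 8.36, 8.85 and 9.34 at 0 h in the LR12 arm. By 2 h they had reached 9.33, 9.97 and 10.66. The 4 h levels were 10.14, 10.88 and 10.98, and those of 8 h were 9.86, 10.44 and 10.74. Every animal was higher than at 0 h at each hour. EIF4E3 rose by 1.10 ± 0.26 at 2 h (adjusted p = 6.48e-04), 1.84 ± 0.26 at 4 h (adjusted p = 2.55e-07) and 1.50 ± 0.26 at 8 h (adjusted p = 2.26e-05), to 215%, 358% and 283% of the 0 h level. It was called under both scalings and with every animal left out in turn, and its 3 other probe sets changed by 0.72 to 1.40 at 4 h.

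EIF4E3 was also higher after 0 h in the control arms, by a smaller amount that was not called. The peptide control animals went from 9.45, 8.52, 8.92 and 9.28 at 0 h to 9.71, 9.82, 9.39 and 10.01 at 4 h, and the vehicle animals from 9.22, 8.59, 9.62 and 9.56 to 10.13, 9.92, 10.40 and 9.42. The LR12 values at 4 h lay above all peptide control values and overlapped those of vehicle. The change to 4 h was larger in LR12 than in the peptide control by 1.15 (95% interval 0.35 to 1.94, adjusted p = 0.606) and than in vehicle by 1.12 (0.32 to 1.92, adjusted p = 0.156). The vehicle contrast passed with the replicate block (adjusted p = 0.0364).

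EIF4E, the main cap-binding protein, had lowest, median and highest LR12 levels of 11.03, 11.33 and 11.42 at 0 h, and by 4 h these were 11.87, 12.13 and 12.34. It rose by 0.31 ± 0.12 at 2 h, 0.87 ± 0.12 at 4 h (adjusted p = 1.77e-07, 183% of the 0 h level) and 0.56 ± 0.12 at 8 h. The 2 h call held in 4 of 11 alternative settings and in 9 of 14 fits that left an animal out. It was lost after centring, under quantile normalization, with only the groups compared and in the low-signal arrays alone. The 4 h call was lost with the mean of all EIF4E probe sets (0.32, adjusted p = 0.301). The 8 h call was lost with that mean (0.02, adjusted p = 0.958) and with the second-brightest probe set. The peptide control animals went from 11.51, 11.21, 11.51 and 11.62 at 0 h to 11.68, 12.18, 11.95 and 12.11 at 4 h and 11.93, 12.15, 12.16 and 12.01 at 8 h, higher in 4 of 4 at both hours. EIF4E rose there by 0.52 ± 0.15 at 4 h (adjusted p = 0.0304) and 0.60 ± 0.15 at 8 h (adjusted p = 0.0334). Both calls were lost with the mean or second-brightest probe set, with only the groups compared and in the high-signal arrays alone. They were also lost without any one of Y31306, Y31307 and Y31308. The vehicle animals stood at 11.64, 11.62, 12.25 and 11.73 at 4 h, with Y31303 as the highest. A dim probe set of EIF4E, with a mean level of 4.09, changed by -1.61 at 4 h in LR12, against 0.87 for the one used, and the mean of all EIF4E probe sets gave -0.03 in place of 0.60 in the peptide control at 8 h. EIF4E2, a cap-binding repressor of translation, rose by 0.38 at 2 h in LR12, a call that was lost after centring.

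EIF4EBP1 and EIF4EBP2 encode the proteins that sequester EIF4E, and both fell, at different hours. EIF4EBP1 had lowest, median and highest levels of 6.70, 7.16 and 7.47 at 0 h in the LR12 arm. By 2 h these were 4.54, 5.64 and 6.03. The 4 h levels were 5.55, 5.82 and 6.03, and those of 8 h were 6.00, 7.11 and 7.51. The 2 h and 4 h values all lay below those of 0 h, and the 8 h values overlapped them. EIF4EBP1 fell by 1.64 ± 0.27 at 2 h (adjusted p = 3.92e-06, 32.1% of the 0 h level) and by 1.32 ± 0.27 at 4 h (adjusted p = 9.19e-05), and its change at 8 h was -0.14.

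The peptide control animals had EIF4EBP1 levels of 6.80, 6.88, 6.82 and 7.33 at 0 h and 7.41, 5.76, 5.87 and 6.52 at 2 h. Y31305 was higher and the other 3 animals were lower, and the mean change of -0.57 was not called. In the vehicle arm the levels were 7.04, 6.86, 6.53 and 6.79 at 0 h and 7.01, 6.82, 6.01 and 7.44 at 2 h, with Y31303 as the lowest. LR12 lay below vehicle at 2 h by 1.34 ± 0.30 (adjusted p = 0.00137), with overlap only at Y31303. That call held with each animal left out in turn and after centring.

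The change of EIF4EBP1 to 2 h was also the only member change that differed between LR12 and vehicle, by -1.66 ± 0.42 (adjusted p = 0.0294), against 2.17% of all genes called. It was not called after centring, in the arrays with low control signal alone, or without any one of 7 animals. Against the peptide control the same difference was -1.08 (95% interval -1.90 to -0.25, adjusted p = 0.313).

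EIF4EBP2 changed later. Its lowest, median and highest levels in the LR12 arm were 12.18, 12.30 and 12.42 at 0 h. By 2 h these were 11.99, 12.15 and 12.27, and by 4 h they were 10.92, 11.13 and 11.65. It fell by 1.12 ± 0.20 at 4 h (adjusted p = 1.53e-05) and 1.09 ± 0.20 at 8 h (adjusted p = 5.82e-05), to 45.9% and 47.0% of the 0 h level. In the peptide control arm it went from 12.04, 12.24, 12.28 and 12.50 to 12.22, 10.54, 11.35 and 11.33 at 4 h, a fall of 0.90 ± 0.25 (adjusted p = 0.0282) that Y31305 did not share. In the vehicle arm it went from 12.21, 12.37, 12.32 and 12.39 to 12.28, 12.44, 10.93 and 12.21, so that Y31303 alone dropped, into the LR12 range.

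LR12 lay below vehicle in EIF4EBP2 by 0.79 ± 0.22 at 4 h (adjusted p = 0.0156) and 0.80 ± 0.22 at 8 h (adjusted p = 0.0403). Neither was called with only the groups compared or in the high-signal arrays alone, and the calls were lost without any one of 3 animals at 4 h and of 10 at 8 h, where centring also ended it. The second-brightest probe set of EIF4EBP2 gave 0.26 and 0.07 for those differences, of the opposite sign. Within the LR12 arm all 3 other probe sets were lower than at 0 h at 4 and 8 h, by 0.16 to 0.61 and by 0.26 to 0.98.

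**Figure D4:**
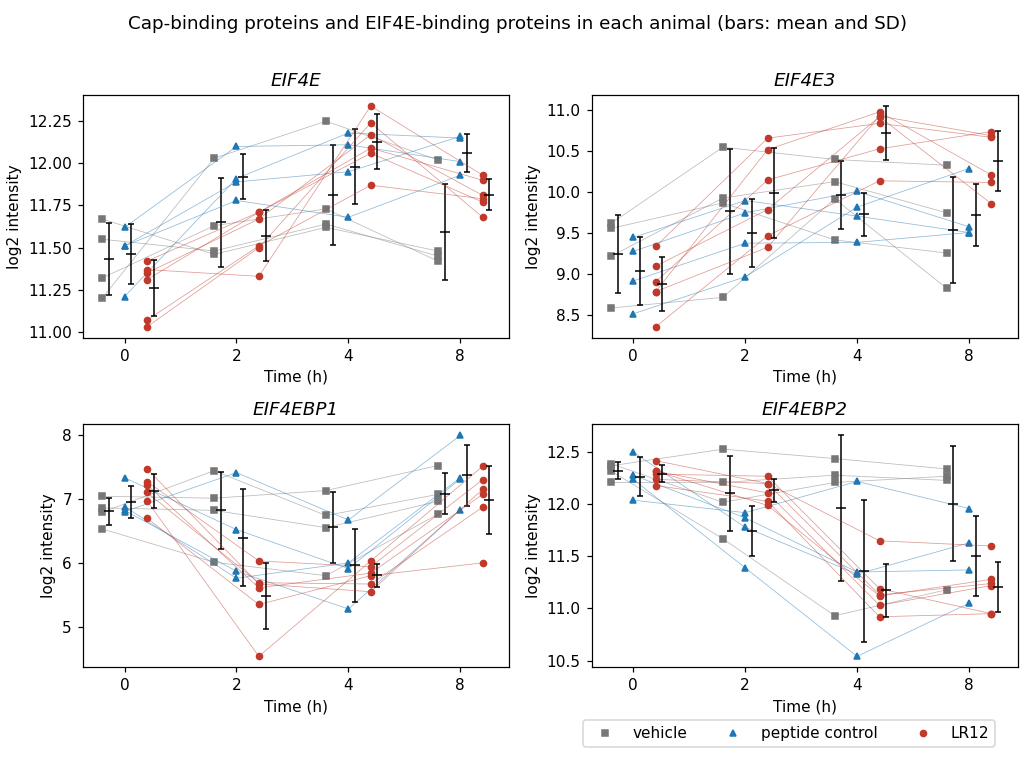
Log2 intensity of the cap-binding proteins EIF4E and EIF4E3 and of the inhibitors EIF4EBP1 and EIF4EBP2 against time in every animal, with thin lines joining the arrays of an animal and black bars giving mean and SD of each arm and hour. In LR12 the cap-binding proteins peak at 4 h, and EIF4EBP2 drops between 2 and 4 h. EIF4EBP1 is lowest at 2 h, and its 8 h values overlap the starting range, with Y31311 still below it.

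Several other factors act around EIF4F. EIF4G1, the scaffold of EIF4F, fell by 0.59 ± 0.15 at 8 h in LR12 and was then below vehicle by 0.60 ± 0.17 (adjusted p = 0.0396). Neither was called after centring, and the difference from vehicle was also lost with the second or the mean of its probe sets, with only the groups compared, in the high-signal arrays alone and without any one of 9 animals. EIF4G2, a scaffold that lacks the EIF4E site, rose by 0.31 at 2 h. EIF4B and EIF4H stimulate the helicase EIF4A. EIF4H rose by 0.39 at 2 h (adjusted p = 0.0479), a call lost without any one of 11 animals, with no filter, with only the groups compared and in the low-signal arrays alone. EIF4B fell by 0.31 ± 0.10 at 4 h, a call lost after centring and without Y31313. At that hour LR12 lay below vehicle by 0.37 ± 0.11 (adjusted p = 0.0279, lost without any one of 5 animals). That difference was also lost with the second-brightest probe set, with only the groups compared and in the high-signal arrays alone. EIF4A3, which despite its name is part of the exon junction complex, fell by 0.67 at 8 h, a call lost after centring. EIF4ENIF1, the shuttling partner of EIF4E, fell by 0.62 ± 0.16 at 2 h.

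Among the factors of start codon selection, EIF1 rose by 0.43 ± 0.10 at 2 h in LR12 (adjusted p = 4.65e-04), with values of 13.51 to 13.92 at 0 h and 13.92 to 14.49 at 2 h. Its paralog EIF1B rose by 0.47 ± 0.16 at 4 h in LR12 and by 0.67 ± 0.20 at 2 h in the peptide control (adjusted p = 0.0405), there from between 9.96 and 10.24 to 10.81, 10.56, 10.83 and 10.85. That peptide control rise occurred in 4 of 4 animals without overlap, and it was not called after centring, with the array set in the model, or without any one of 6 animals. The vehicle animals went from 10.36, 10.10, 9.84 and 10.24 to 10.39, 10.52, 11.24 and 10.78, a change of 0.60 that was not called. EIF1AD fell by 0.52 ± 0.15 at 8 h in LR12 and was above vehicle at 2 h by 0.56 ± 0.17 (adjusted p = 0.0175), a difference that was lost after centring and without any one of 3 animals. EIF1AX was not called in any arm. The noncoding EIF1B-AS1 lay near the bottom of the scale, with LR12 values of 2.08 to 4.27 at 0 h and 4.10 to 5.17 at 8 h, and was not called (adjusted p = 0.0652 at 8 h).

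Of the factors that act when the subunits join, EIF5B, the GTPase of that step, fell at each hour in LR12, by 1.27 ± 0.30, 1.39 ± 0.30 and 1.36 ± 0.30. Its lowest, median and highest levels were 8.14, 8.67 and 9.18 at 0 h and by 4 h were 6.78, 7.25 and 8.09, and all 5 of its other probe sets were lower than at 0 h at every hour. EIF5B was named after its values were seen. EIF5, which makes EIF2 hydrolyse its GTP, fell by 0.33 at 2 h and 0.27 at 4 h with the probe set used, but its 3 other probe sets changed by 0.16 to 0.24 at 4 h and by 0.46 to 0.55 at 8 h, so that they disagree in sign at 4 h. EIF6, which keeps the large subunit from joining too early, fell by 0.50 at 4 and 8 h, and neither call remained after centring. EIF5A and EIF5A2, which help ribosomes to elongate through difficult stretches, were not called in any arm.

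In direct comparisons between the arms, the members that were called lay lower in LR12 in most cases. LR12 was compared with the peptide control at 0, 2, 4 and 8 h: 0, 2, 1 and 0 members were called, against 0%, 2.95%, 1.35% and 0.0187% of all genes. The counts at an unadjusted p below 0.05 were 1, 12, 10 and 12, again without the share of all genes beside them. Against vehicle the counts were 0, 8, 5 and 6, against 0.0187%, 15.9%, 11.9% and 2.72%, with 3 members higher (EIF1AD, EIF2S1 and EIF4G2) and 5 lower at 2 h and all lower at 4 and 8 h. The array sets were unevenly spread over the arms and hours. At 0, 2, 4 and 8 h high-signal arrays made up 1, 1, 2 and 3 of 6 in LR12. They made up 3, 1, 4 and 3 of 4 in the peptide control and 2, 0, 2 and 2 of 4 in vehicle. Changes from 0 h therefore cross array sets in part of the animals. With the array set in the model, 7 and 4 members differed from the peptide control at 2 and 4 h, against 6.94% and 1.64% of all genes, and 11, 12 and 11 from vehicle, against 17.9%, 18.5% and 7.18%. Low-signal arrays alone gave 0 against the peptide control at 2 h and 12 and 13 against vehicle at 4 and 8 h, and high-signal arrays alone gave 0 against the peptide control at 4 h and 0 against vehicle at both 4 and 8 h. The counts from a single array set have no share of all genes beside them and are not read as an excess. Among those not yet given, EIF2B4 differed by -1.26, EIF5B by -0.96 and EIF3I by -0.72 at 2 h, EIF3B by -1.14 and -1.09 at 4 and 8 h, and EIF2D by -1.11 and EIF3E by -0.37 at 8 h, with adjusted p from 0.0112 to 0.0448. With each animal left out in turn, EIF2B4 kept its call in 13 of 14 fits and EIF3B in 11 and 5 of 14. EIF3I and EIF2D kept theirs in 4 of 14. Centring ended the calls of EIF3I, of EIF2D and of EIF3B at 8 h. Both EIF3B calls were also lost with the mean or second-brightest probe set, with only the groups compared and in the high-signal arrays alone. The peptide control and vehicle did not differ by a called member at any hour, against 0%, 0%, 0.00624% and 0% of all genes, with 0, 5, 4 and 6 members at an unadjusted p below 0.05. Comparisons that share an arm share its animals, so they are not independent of each other.

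The change from 0 h was compared between arms as well. LR12 and the peptide control differed in no member at 2, 4 or 8 h, where limma called 0%, 0% and 0% of all genes and 8, 4 and 3 members had an unadjusted p below 0.05. LR12 and vehicle differed in 1, 0 and 0 members, against 2.17%, 0.218% and 0%. With the replicate block 5, 4 and 2 members differed from vehicle: EIF2B3, EIF2B4, EIF2B5, EIF4EBP1 and EIF5B at 2 h, EIF2B3, EIF3B, EIF3G and EIF4E3 at 4 h, and EIF3G and EIF3K at 8 h. A larger number of calls within the LR12 arm than within the peptide control arm is therefore not shown to be a difference between them.

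Single animals moved these counts. Counts from fits that leave out an animal have no share of all genes beside them, here and below. They are therefore not read as a result about the members. In the median change of the 5 EIF2B subunits, the peptide control animal Y31305 stood apart from its arm at 4 and 8 h and the vehicle animal Y31303 at 8 h. At 2 h Y31305 (0.19) lay close to Y31308 (0.11), and at 4 h Y31303 (-0.61) lay within the range of its arm. In Y31305 the median change of the 5 EIF2B subunits was 0.19, -0.15 and 0.55 at 2, 4 and 8 h, against -1.41 to -0.81 at 4 h in the other peptide control animals. For the change to 8 h, Y31305 alone of its arm went from a high-signal array to a low-signal one. The part of the array set in this was not tested. Without Y31305 the number of members called in the peptide control arm rose from 3 to 10 at 4 h and from 2 to 4 at 8 h, and without any one of Y31306, Y31307 and Y31308 it was 0 at both hours.

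Vehicle animal Y31303 went the other way at 8 h, with a median EIF2B change of -0.70 against -0.27 to 0.26 in Y31301, Y31302 and Y31304. Without it LR12 differed from vehicle in 13, 15 and 18 members at 2, 4 and 8 h, in place of 8, 5 and 6. Without Y31301 the counts were 3, 0 and 0, and without Y31304 they were 3, 1 and 0. At 8 h the count was also 0 without any one of Y31302, Y31311, Y31312, Y31313 and Y31314, and at 4 h it was 10 without Y31309. Summed over 9 T-cell markers, Y31303 had the lowest level of its arm at 8 h (1394, against up to 7618 in the others), and Y31305 had the highest of its arm at 4 and 8 h (3508 and 7179). Whether the markers account for the difference was not tested.

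**Figure D5:**
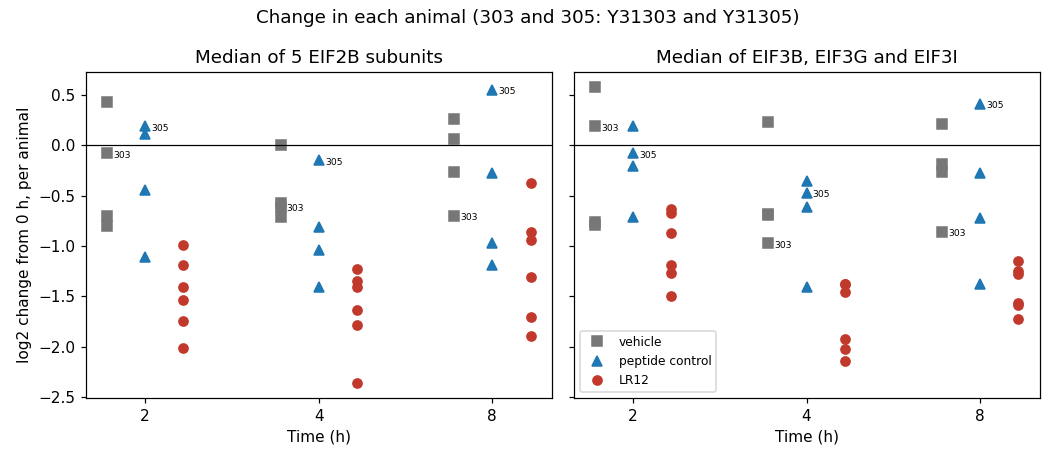
Median log2 change from 0 h over the 5 EIF2B subunits (left) and over EIF3B, EIF3G and EIF3I (right) in each animal at 2, 4 and 8 h, with Y31303 and Y31305 marked. All LR12 animals lie below 0 at each hour in both panels, while the vehicle and peptide control animals spread on both sides of it at 2 and 8 h.

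Blood cell markers moved at the same hours as the initiation factors. In the LR12 arm 7, 9 and 9 of the 9 measured T-cell markers fell at 2, 4 and 8 h, and their summed level went from 6272 to 9554 at 0 h to 1699 to 7548 at 2 h, 884.5 to 2918 at 4 h and 1087 to 2733 at 8 h. Of 8 neutrophil markers 5, 5 and 6 rose in that arm, with sums of 2966 to 7039 at 0 h and 13530 to 17200 at 4 h. Among all genes 21.9%, 26.0% and 20.4% were called lower and 10.1%, 10.8% and 8.65% higher at those hours. Neutrophil sums are given for LR12 alone, so this rise is not set against the control arms. T-cell sums in the peptide control arm were 4291 to 8226 at 0 h, 5877 to 7348 at 2 h, 1568 to 3508 at 4 h and 2061 to 7179 at 8 h, and in vehicle 4032 to 11020 at 0 h and 2362 to 4616 at 4 h. In whole blood, fewer cells of a type cannot be told apart from less RNA of these genes per cell, and the part of cell composition in the changes was not tested.

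The other genes of the pathway were taken from lists. Of 22 genes of EIF2 kinases, phosphatases and stress response targets, 4 rose and 4 fell at 2 h in LR12, 3 rose and 4 fell at 4 h, and 2 rose and 3 fell at 8 h. Among all genes 10.1%, 10.8% and 8.65% were called higher and 21.9%, 26.0% and 20.4% lower at those hours. PPP1R15A, the inducible subunit that directs a phosphatase to EIF2, rose at 2 h by 1.76 in LR12 and by 1.56 in the peptide control. ATF3, a stress-inducible transcription factor, rose by 3.28 and 2.99. The kinases EIF2AK1 and EIF2AK4 fell at 4 and 8 h in LR12, EIF2AK2 and EIF2AK3 were not called, and ATF4 changed by -0.10, -0.32 and 0.18 without a call.

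Of 33 measured genes around mTORC1, 6 rose and 13 fell at 2 h in LR12, 4 rose and 16 fell at 4 h, and 3 rose and 12 fell at 8 h. The Rag GTPase genes RRAGC and RRAGD, whose products bring mTORC1 to the lysosome, rose at each hour, RRAGD by 1.93 at 4 h, while RRAGB fell by 1.93. NPRL2, part of the complex that turns the Rag GTPases off, fell by 2.42 at 4 h in LR12 and also fell in the peptide control. RPS6KB1, the S6 kinase, fell by 0.75, 0.81 and 0.99 in LR12. MTOR itself was not called, with changes of 0.08, -0.11 and -0.17.

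Of 19 measured partners of EIF4F on the mRNA, 2 rose and 4 fell at 2 h, 4 rose and 7 fell at 4 h, and 3 rose and 5 fell at 8 h. PABPC1, the poly(A)-binding protein, fell by 0.63 at 4 h, and the helicase DDX3X rose by 0.47, 0.50 and 0.59. Against the background of 21.9%, 26.0% and 20.4% of all genes called lower, the mTORC1 list had 13, 16 and 12 of 33, and the partners list 4, 7 and 5 of 19.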

How the data were processed

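The deposited values were linear array intensities. The submitters' processing notes name MAS5, with which the authors made them. They were used as log2 values without further normalization. Their trimmed mean was 150.03 to 150.04 on every array. Of 54675 probe sets, 41097 had 1 symbol in the platform annotation, 1801 several and 11777 none. One limma 3.58.1 model (R 4.3.3) with the 12 groups of arm and hour was fitted to all 56 arrays, with trended and robust moderation and no block. Tests were two-sided. The members and the gene lists were chosen with earlier results of these data known. Sample values were given for the 5 largest called rises and 5 largest called falls in LR12, for up to 5 members called in the control arms and up to 5 per comparison between arms (smallest adjusted p), and for paralogs called in opposite directions, of which there were none. Other members were added by role.

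The labels number the animals, and the arrays of an animal deviated together (mean correlation 0.18 within and -0.03 between animals, 45 of 56 best matches in the same animal). The fit with the animal as replicate block used a consensus correlation of 0.221 (statmod 1.5.0). Arrays also fell into 24 with high and 32 with low signal of 45 nonmammalian control probe sets, which was taken as an array batch. Alternatives changed scaling, offset (16), filter, probe set, fit, batch and each animal. The tests were checked on simulated data.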

Additional observations from a re-analysis of the deposited data

Results flagged for a closer look

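Changes from 0 h of the named members were compared among the animals of each arm and hour, in 180 groups of 4 or 6 animals. An animal was picked out when its distance to the nearest other animal was a large part of the range of its group, and chance alone picks about 1 group in 20.

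EIF4EBP2 in vehicle animal Y31303 changed by -1.40 at 4 h and -1.14 at 8 h, while the other 3 vehicle animals ran from -0.18 to 0.07 and from -0.13 to 0.02. EIF4EBP2 in LR12 animal Y31309 changed by -0.59 at 4 h, against -1.29 to -1.10 in the other 5. EIF4E in LR12 animal Y31312 changed by -0.0422 at 2 h, against 0.29 to 0.47 in the others.

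EIF1B was high in peptide control animal Y31306 at 4 h (0.82, others 0.07 to 0.15) and in vehicle animal Y31303 at 4 h (0.82, others 0.20 to 0.29), and low in vehicle animal Y31301 at 8 h (-0.0674, others 0.14 to 0.17). EIF1AD in peptide control animal Y31305 changed by -0.78 at 4 h, against 0.05 to 0.11 in the others. The median change of the 42 members minus that of all genes was 0.36 at 2 h in LR12 animal Y31314 (others -0.12 to 0.05) and 0.22 at 8 h in peptide control animal Y31305 (others -0.18 to -0.13).

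EIF4EBP1 was picked out because its change to 2 h differed between LR12 and vehicle, by -1.66 (adjusted p = 0.0294). EIF3K was picked out because every LR12 animal was lower at 2 h, by 0.30 in mean (-0.30), and every peptide control animal higher, by 0.06 in mean. The difference between those changes was -0.36 (95% interval -0.76 to 0.04, adjusted p = 0.489).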

How the results depend on the processing

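Leaving out each animal in turn gave 11 to 15, 16 to 21 and 17 to 22 falls in LR12 at 2, 4 and 8 h. Of 975 values of 39 summary results, 806 kept their side or stayed within the stated limits and 169 moved. Of 1633 values of 66 single-gene calls, 1362 kept the call, 266 lost it and 5 changed sign. The cause of these shifts was not tested. Member counts in this section have no share of all genes beside them and are not read as an excess. The number of arrays limits the precision of all values.

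Arrays of an animal were paired with a replicate block. Members called in the peptide control arm then numbered 3 at 2 h and 14 at 4 h, LR12 against the peptide control 3 at 4 h, and the changes that differed between LR12 and vehicle 5, 4 and 2. All 66 single-gene calls held with the block.

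Centring gave 10 and 9 falls and 6 and 5 rises in LR12 at 4 and 8 h. It gave 0 calls for the change to 2 h against vehicle, 0 and 0 for LR12 against the peptide control at 2 and 4 h, 4 and 0 against vehicle at 2 and 8 h, and 0, 1 and 1 in the peptide control arm. Quantile normalization gave 1 for LR12 against the peptide control at 2 h, 5 against vehicle at 2 h and 1 in the peptide control arm at 8 h. Its median member change minus that of all genes was -0.335 and -0.509 in LR12 at 4 and 8 h, 0.0221 (2 h) and -0.155 (4 h) in the peptide control, and -0.198 in vehicle at 4 h. An offset of 16 gave 1 for LR12 against the peptide control at 2 h and a median of -0.0626 in the peptide control at 4 h.

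No filter gave 3 against vehicle at 8 h and 1 in the peptide control at 8 h. Probe sets above the median on all arrays gave 2 for the change to 2 h against vehicle, 5 for LR12 against the peptide control at 4 h, 3 and 7 in the peptide control at 2 and 4 h, and medians of -0.061 (peptide control) and -0.158 (vehicle) at 4 h. The second-brightest probe set, which 28 members have, gave 4, 7 and 11 falls in LR12, 0 and 0 against the peptide control at 2 and 4 h, 2, 0 and 1 against vehicle, 0 for the change to 2 h, and 0, 1 and 1 in the peptide control. Its medians were 0.0871 in LR12 at 8 h, 0.0371 and 0.12 in the peptide control at 2 and 4 h and 0.0706 in vehicle at 4 h. With it EIF2B5 in LR12 changed by 0.0064 and 0.359 at 4 and 8 h, and EIF4EBP2 against vehicle was 0.257 and 0.0749. The mean of all probe sets gave 1 rise in LR12 at 4 h, 0 against the peptide control at 4 h, 3 and 1 against vehicle at 4 and 8 h, calls of 0, 1 and 0 within the peptide control (median 0.0365 at 2 h), and -0.0327 for EIF4E in the peptide control at 8 h.

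Fitting only the groups compared gave 0 and 0 against the peptide control at 2 and 4 h, 5, 1 and 0 against vehicle, and 0 and 0 in the peptide control at 2 and 8 h. With the array batch in the model there were 7 and 4 against the peptide control at 2 and 4 h, 12 and 11 against vehicle at 4 and 8 h, and a median of 0.0033 in the peptide control at 2 h. Low-signal arrays alone gave 0 and 1 for the change to 2 and 4 h against vehicle, 0 against the peptide control at 2 h, and 12 and 13 against vehicle at 4 and 8 h. High-signal arrays alone gave 0 against the peptide control at 4 h, 0 and 0 against vehicle at 4 and 8 h, counts of 0 and 1 within the peptide control at those hours, and a median of 0.0474 in vehicle at 4 h.

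Leaving out single animals gave 4 to 8 rises in LR12 at 2 h, the fewest without Y31310. LR12 against the peptide control gave 0 to 6 at 2 h, 0 to 5 at 4 h and 0 to 1 at 8 h, and against vehicle 3 to 13, 0 to 15 and 0 to 18, the most without Y31303. The change against vehicle gave 0 to 3, 0 to 3 and 0 to 4. The peptide control arm gave 0 to 2, 0 to 10 and 0 to 4, and the peptide control against vehicle 0 to 2, 0 to 4 and 0 to 3, the most without Y31303.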

Other observations

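Genes of the steps before and after initiation were also measured. Of 17 aminoacyl-tRNA synthetases, which load amino acids onto tRNAs, 10 fell and 1 rose at each of 2, 4 and 8 h in the LR12 arm, against 21.9%, 26.0% and 20.4% of all genes called lower. Their median change was -0.74, -0.77 and -0.78. The falls included IARS1, by 1.94 at 2 h, and FARSA and FARSB, the 2 subunits of the phenylalanine enzyme, by 1.34 and 1.66. CARS1 was the exception and rose by 1.10, 1.20 and 0.57, and it rose in the peptide control arm by 1.17 at 2 h and 0.91 at 4 h. The T-cell markers fell at the same hours, and their part in this was not tested.

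Of 16 elongation and termination factors, 3 rose and 7 fell at 2 h, 2 rose and 5 fell at 4 h, and 2 rose and 6 fell at 8 h in LR12. At those hours 10.1%, 10.8% and 8.65% of all genes were called higher and 21.9%, 26.0% and 20.4% lower. HBS1L, which rescues stalled ribosomes, rose by 1.58, 1.33 and 0.83, and rose by 1.27 and 0.96 at 2 and 4 h in the peptide control. ETF1, the release factor that reads stop codons, rose by 1.34 at 2 h in LR12 and by 1.26 in the peptide control. GSPT2, a partner of the release factor, fell by 2.40, 2.10 and 1.80 in LR12, and EEF2, which moves the ribosome along the mRNA, fell by 1.41 at 4 h. EEF1A1, which delivers aminoacyl-tRNA, changed by 0.26 at 2 h, which was called, and by -0.05 and -0.03 later.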
